A study of Homo sapiens with 6 samples.

Results

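The Polycomb subunit genes EZH2, EED, SUZ12, RBBP4, RBBP7, RING1, RNF2, BMI1, CBX2 and CBX8 were examined for peaks of histone lysine acetylation (Kac) and histone lysine benzoylation (Kbz). They are 10 of the 20033 protein-coding genes and of the 62663 genes of all kinds in the GENCODE 44 annotation of hg38, and they were chosen by name. All peaks that overlapped a gene body or the 5 kb on either side of it, here called the gene window, were counted by at least 1 bp. The chromatin came from HepG2, an established line of human liver tumour cells, grown in DMEM with 10% FBS and either left untreated (control) or given 10 mM sodium benzoate (SB), a food preservative from which cells can make benzoyl-CoA, for 24 h. ChIP-seq, which sequences the DNA bound by an antibody, was done on chromatin cut with micrococcal nuclease, with pan antibodies that bind Kac or Kbz on any histone. There was 1 library in each of 6 groups (input, Kac and Kbz, from control and SB cells). Peak lists of 3 groups were used, namely control Kac, SB Kac and SB Kbz, while the labels state that the control Kbz library gave no peaks. All groups are the same cell line, and nothing in the labels gives separate cultures.

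Polycomb proteins work in complexes, PRC1 and PRC2, that keep genes silent. In PRC2, the enzyme EZH2 together with SUZ12 and EED methylates a lysine in the tail of histone H3, and RBBP4 or RBBP7 helps the complex to hold on to histones. In PRC1, RING1 or RNF2 pairs with a PCGF protein such as BMI1 to ubiquitinate histone H2A, and CBX proteins such as CBX2 and CBX8 read the methyl mark left by PRC2. The marks measured here lay on the genes that encode these proteins, and acetylation at a gene start is generally found at genes in use.

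There were 70326 peaks of control Kac, 63282 of SB Kac and 24308 of SB Kbz in all. The peak lists carry no read totals, so the depth of each library is unknown, and with 1 library per group no difference between lists can be set against replicate error. The fold of a peak, its read density over background averaged along the peak by the peak caller, was therefore used only as a percentile within its own list. The label of the cells was checked against marker genes. Over the transcription start site (TSS) of the canonical transcript, 3 of 20 liver genes had a peak in the control Kac list, 2 in the SB Kac list and 2 in the Kbz list. The transcription factor gene FOXA3 had peaks in all lists, whereas ALB (albumin), APOA1, APOB, FGA, FGB, FGG and HNF4A had none over the TSS. Among 10 genes of kidney development the counts were 7, 8 and 6 in the same order, among 6 neuronal genes 2, 3 and 1, and among 6 blood genes 1, 1 and 0. The shares over all protein-coding genes were 59.1%, 60.4% and 45.8% in that order, so the kidney counts were not far from ordinary. The defining liver genes were thus mostly without a TSS peak, the cells are referred to by their label, and what this means for the values below was not tested.

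Sequences of 4 promoters are shown first because they stand for the range of starts among these genes: EZH2 and SUZ12, where Kbz stopped short of the TSS, EED, which lies in the least CpG-rich sequence, and RBBP4, where the peaks ranked highest. Each is the 250 bases before the RefSeq start (GRCh38.p14), with matches to CCAAT (bound by NF-Y), GGGCGG (bound by SP1) and the E2F words TTTCCCGC, TTTGGCGC, TTCCCGCC and TTGGCGCC in capitals, read on both strands. Counts of matches below also take in the 50 bases after the start, so that the E2F word of EZH2, which lies just after its start, and a GGGCGG match across the start of SUZ12 are not in capitals here. The positions are chr7:148884292-148884541 on the minus strand for EZH2, chr11:86244503-86244752 on the plus strand for EED, chr17:31936757-31937006 on the plus strand for SUZ12 and chr1:32650958-32651207 on the plus strand for RBBP4.
EZH2: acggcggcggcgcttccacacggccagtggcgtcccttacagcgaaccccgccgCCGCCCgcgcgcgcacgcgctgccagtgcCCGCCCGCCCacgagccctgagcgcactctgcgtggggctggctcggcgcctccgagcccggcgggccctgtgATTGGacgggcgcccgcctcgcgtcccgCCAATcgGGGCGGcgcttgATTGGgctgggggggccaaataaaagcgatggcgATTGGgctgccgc
EED: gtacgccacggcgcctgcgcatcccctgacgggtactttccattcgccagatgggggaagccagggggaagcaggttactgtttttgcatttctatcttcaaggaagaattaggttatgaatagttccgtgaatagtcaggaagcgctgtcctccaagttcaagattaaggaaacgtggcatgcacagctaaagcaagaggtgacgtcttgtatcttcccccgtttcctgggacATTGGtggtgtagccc
SUZ12: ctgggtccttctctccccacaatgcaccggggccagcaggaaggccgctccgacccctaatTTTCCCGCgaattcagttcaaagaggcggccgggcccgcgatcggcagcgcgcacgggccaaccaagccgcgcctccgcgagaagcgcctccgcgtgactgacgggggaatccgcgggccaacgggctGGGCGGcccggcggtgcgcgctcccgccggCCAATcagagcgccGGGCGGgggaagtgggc
RBBP4: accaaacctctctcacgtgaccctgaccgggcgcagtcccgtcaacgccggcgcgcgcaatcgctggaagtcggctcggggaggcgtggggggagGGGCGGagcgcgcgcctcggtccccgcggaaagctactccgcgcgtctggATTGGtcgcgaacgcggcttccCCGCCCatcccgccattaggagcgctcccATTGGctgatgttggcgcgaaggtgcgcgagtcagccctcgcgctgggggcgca

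RefSeq promoters (250 bases before to 50 bases after the start) were found for 8 of the 10 genes, all but CBX2 and CBX8. Their median GC content was 73.2% and their median number of CpG dinucleotides 41, against 58.7% and 14 over 35116 RefSeq promoters. EED was the exception, with 52.3% GC and 16 CpG. GGGCGG was present in 7 of 8 promoters, with EED again the exception, and in 44.95% of all promoters. CCAAT was present in 5 of 8 (EZH2, EED, SUZ12, RBBP4 and RBBP7) and in 34.6% of all, and EZH2 held 4 copies between positions -94 and -9. An E2F word was found in EZH2, SUZ12 and RNF2, 3 of 8 against 5.30% of all promoters. The E2F words overlap one another by most of their letters, and the one of RNF2 also overlaps a GGGCGG match on the other strand. The words CGCATGCG (NRF1), CCGGAAGT (ETS), AAGATGGC (YY1) and TATAAA (the TATA box) were in none of the 8, against 2.02%, 4.14%, 2.89% and 11.53% of all. A match is a description of the letters and not evidence of binding.

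All 10 genes had at least 1 peak of each list in their window. Over all protein-coding genes a control Kac peak was found in 82.6%, an SB Kac peak in 81.4% and a Kbz peak in 72.3%, and the median window was 43075 bases for the Polycomb subunits and 37471 bases for protein-coding genes. The TSS itself was covered in 9 of 10 genes by control Kac (59.1% of protein-coding genes), in the same 9 by SB Kac (60.4%) and in 6 of 10 by Kbz (45.8%). The gene without Kac over its TSS was SUZ12. The genes without Kbz over the TSS were EZH2, SUZ12, BMI1 and CBX8, so that both complexes contributed to each class. Over the windows together, 470072 bases, control Kac peaks covered 13.5%, SB Kac peaks 13.5% and Kbz peaks 5.16%. The windows of all protein-coding genes were covered to 6.32%, 6.11% and 1.83%. Coverage was uneven between the subunit genes. In the short windows of RING1, BMI1, CBX2 and CBX8, control Kac covered 39.1%, 45.3%, 39.1% and 69.2%. SB Kac covered 67.3%, 51.2%, 36.5% and 65.9% there. In the other genes control Kac covered 0.967% (SUZ12) to 13% (RBBP7), and SB Kac 1.18% (SUZ12) to 10.1% (RBBP4). SUZ12 and RNF2 lay below the protein-coding share in both Kac lists. The pooled shares therefore do not describe each gene.

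**Figure D1:**
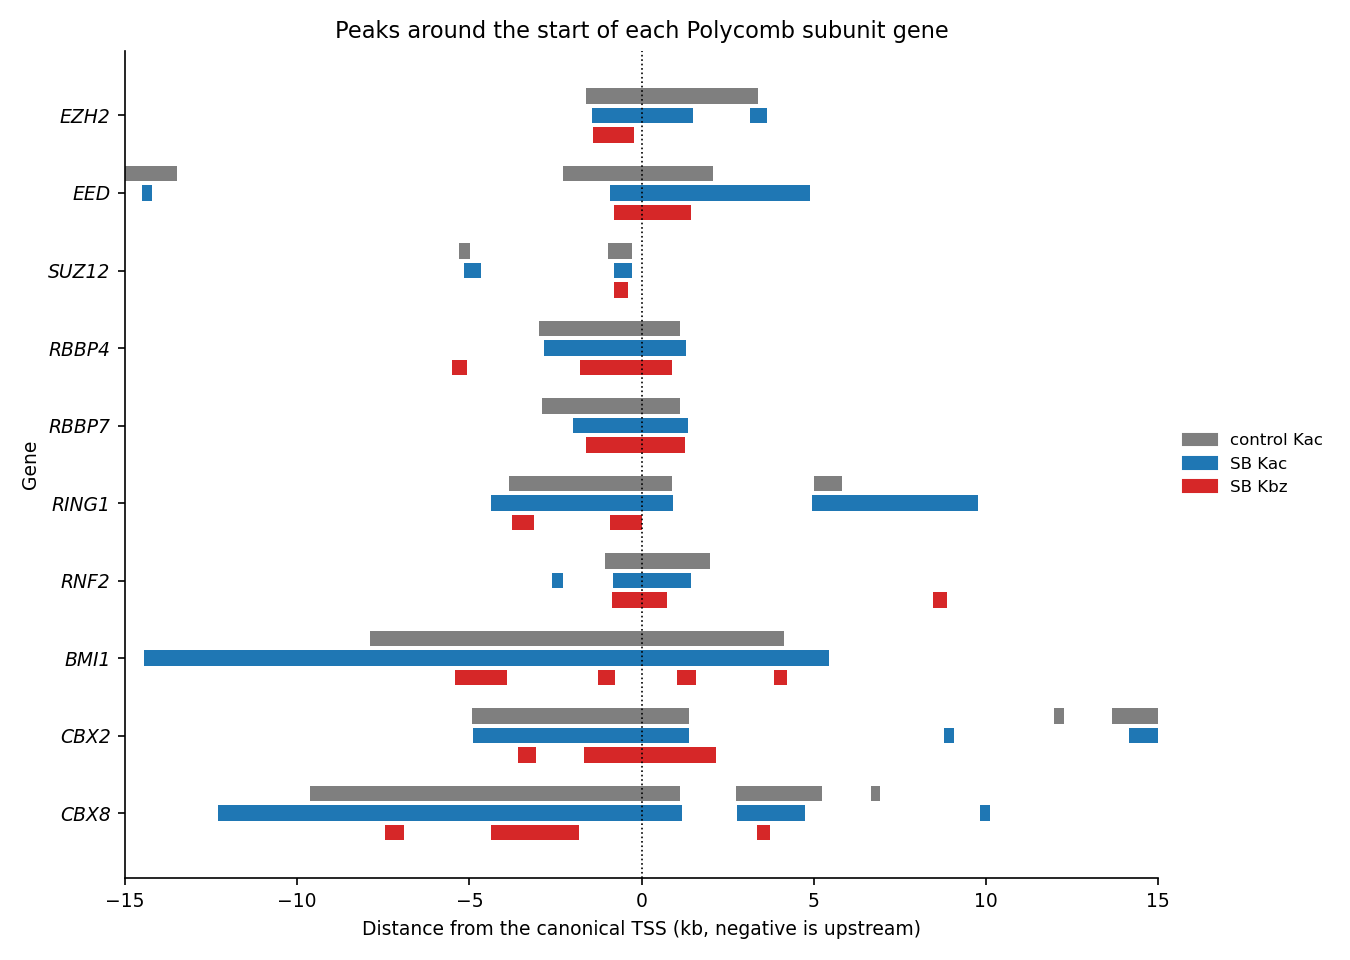
Position of each peak relative to the canonical TSS (dotted line) of the 10 Polycomb subunit genes, in kb with negative values upstream, with one row per list and peaks cut off at the edge of the plot. Bars of both Kac lists cross the dotted line in every gene except SUZ12, and Kbz bars cross it in 6 genes and stop short of it in EZH2, SUZ12, BMI1 and CBX8.

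**Figure D2:**
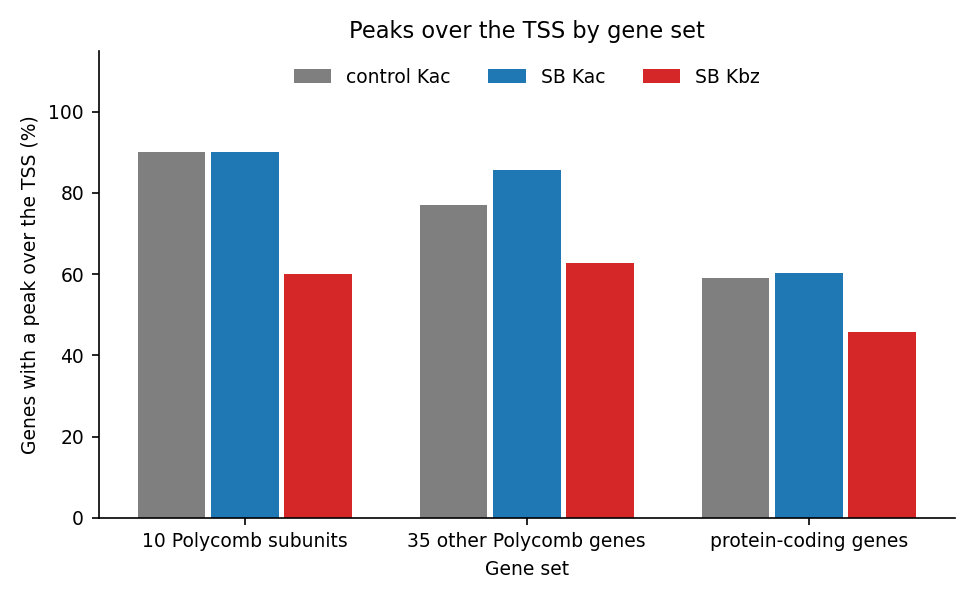
Percentage of genes with a peak over the canonical TSS in each of the 3 lists, for the 10 Polycomb subunits, 35 other Polycomb genes (6 of them listed as opposing Polycomb) and all 20033 protein-coding genes. Bars for Kbz are the lowest in each set, with 6 of 10, 22 of 35 and 45.8% of genes.

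Where SB Kac covered the TSS, Kbz covered it as well in 6 of 9 Polycomb subunit genes, and in 75.4% of such protein-coding genes. At the other 3, EZH2, BMI1 and CBX8, Kbz lay inside the same SB Kac peak but beside the TSS. That arrangement was found in 17.1% of protein-coding genes that had Kbz inside the SB Kac peak of their TSS. Over the TSS, the median length of control Kac peaks was 4731 bases, that of SB Kac peaks 5290 and that of Kbz peaks 2469, against 2830, 2925 and 1821 for protein-coding genes. The median fold percentile was 84.1, 88.4 and 74.6, close to the 83.8, 87.2 and 70.8 of TSS peaks of protein-coding genes. Not every peak was longer than these medians of protein-coding genes: the RNF2 peak of SB Kac (2281 bases) and the RING1 and RNF2 peaks of Kbz (928 and 1607 bases) were shorter.

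The peaks over the TSS reached farther upstream than downstream in 7 of 9 genes in control Kac (46.2% of protein-coding genes), in 6 of 9 in SB Kac (40.5%) and in 4 of 6 in Kbz (47.7%). The median upstream reach was 2986 bases in control Kac and 2828 in SB Kac, against 1253 and 1201 for protein-coding genes. The median downstream reach was 1388 and 1373 bases, against 1327 and 1443. In the medians of both Kac lists, the peaks of the Polycomb subunits were thus longer mainly on the upstream side. Downstream they were slightly longer in control Kac and slightly shorter in SB Kac. Those of Kbz reached 1252.5 bases upstream against 852 and 1072 bases downstream against 885. Measured from the outermost annotated TSS, the peak reached farther upstream in 5 genes in control Kac and in 6 in SB Kac. Only genes with a peak over that start were counted, which leaves out EED, whose outermost start at -43541 had no Kac peak over it. The share of protein-coding genes was not counted from the outermost TSS. Several of these upstream stretches hold the start of another gene, as given below for RBBP4, RING1, BMI1 and CBX8.

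EZH2 (ENSG00000106462, chr7:148807257-148884321, minus strand) encodes the methyltransferase of PRC2. Its control Kac peak ran from 1617 bases upstream to 3385 bases downstream of the TSS, at fold percentile 84.6. The SB Kac peak ran from 1444 bases upstream to 1498 downstream, at percentile 88.5, with a separate SB Kac peak of 509 bases from 3150 to 3658 bases downstream, which overlapped the downstream end of the control peak. The only Kbz peak of the window, 1194 bases long, lay wholly upstream, from -1407 to -214, at percentile 85.8. Kbz thus filled most of the upstream arm of the Kac peak and none of its downstream arm. The other 5 Kac peaks of the window each occurred in a single list, with control Kac peaks at percentiles 12.2 and 14.4 and SB Kac peaks at 0.106, 1.2 and 38.1.

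EED (ENSG00000074266, chr11:86201212-86278813, plus strand) encodes the PRC2 subunit that binds the methyl mark made by the complex. All 3 lists covered its TSS, at percentile 87.1 (control Kac), 87.3 (SB Kac) and 56.3 (Kbz). These 3 peaks also covered the start of a further annotated gene (ENSG00000288809). Upstream, control Kac reached 2295 bases, SB Kac 928 and Kbz 806, and downstream they reached 2084, 4892 and 1437 bases. The Kac peaks were thus of like rank among all peaks of their lists and differed in where they lay. Among the TSS peaks of protein-coding genes, their percentiles of fold were 59.5 (control Kac) and 50.4 (SB Kac). A further site about 26 kb upstream of the TSS, inside the gene record, which begins at position -43541 from this TSS, carried a peak in every list. Its control Kac peak was 1030 bases long at percentile 88, its SB Kac peak 1165 bases at 69.5 and its Kbz peak 919 bases at 59.

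SUZ12 (ENSG00000178691, chr17:31937007-32001038, plus strand), the scaffold subunit of PRC2, was the gene with the smallest peaks near its TSS. Control Kac ran from -972 to -277, SB Kac from -813 to -273 and Kbz from -789 to -404, so that all 3 ended before the TSS. Their lengths of 696, 541 and 386 bases stand against the median TSS peaks given above, although their percentiles of fold were 73.2, 78.6 and 86. The gene window also held a peak of each Kac list near its upstream edge, and only 0.967%, 1.18% and 0.521% of it was covered by control Kac, SB Kac and Kbz.

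The start of SUZ12 has a near copy in the genome. A stretch from -718 to 4119 around the TSS aligned at 96.06% identity over 4873 bases to chr17:30730917-30735734, in the pseudogene SUZ12P1. Of all words of 50 bases, the length of the reads, within 1 kb of the TSS, 57.3% occurred once in hg38, against 97.7% to 100% in the other 9 genes. In the peaks nearest the TSS the share was 81.8% (control Kac), 76.5% (SB Kac) and 67.9% (Kbz). The authors kept uniquely mapped reads. No list had a peak in SUZ12P1. The part that the copy plays in the shape of the SUZ12 peaks was not tested.

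**Figure D3:**
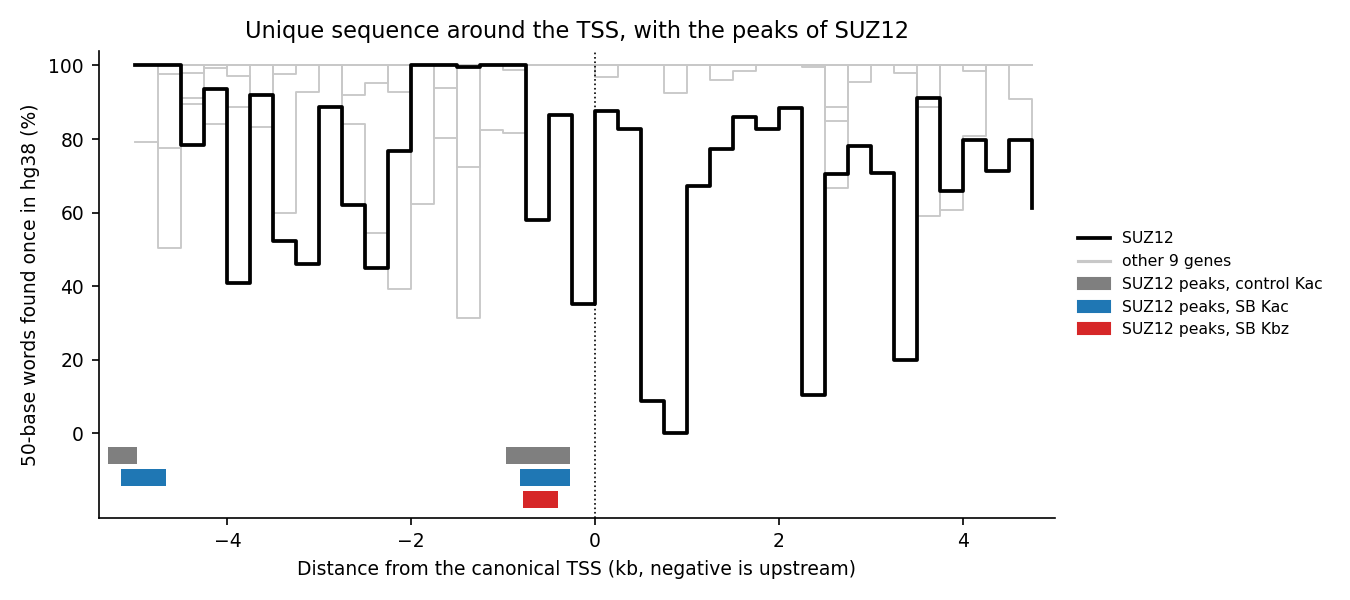
Percentage of 50-base words that occur once in hg38, in bins of 250 bases around the canonical TSS, for SUZ12 (black line) and the other 9 Polycomb subunit genes (grey lines), with the SUZ12 peaks of the 3 lists drawn beneath. The black line falls to 0 in the bin starting 750 bases downstream of the TSS, and the peaks nearest the TSS end between 273 and 404 bases before it.

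RBBP4 and RBBP7 encode closely related WD40 proteins that bind histones and also serve in other chromatin complexes. At RBBP4 (ENSG00000162521, chr1:32651142-32686211, plus strand) the TSS peak stood at percentile 93.8 (control Kac), 98.7 (SB Kac) and 91.1 (Kbz), the highest of the 10 genes in each list. The control Kac peak was 4108 bases long, the SB Kac peak 4111 and the Kbz peak 2694, and all 3 peaks also covered the start of ZBTB8OS. At RBBP7 (ENSG00000102054, chrX:16839283-16870362, minus strand) the percentiles were 77, 88.4 and 76.9, and the lengths 3995, 3347 and 2850 bases. The Kbz peaks over the TSS of both genes stayed within the SB Kac peak. RBBP4 also had a Kbz peak of 441 bases from -5498 to -5058, at percentile 19.8. It lay outside the SB Kac peak of the TSS, and 9 of its bases fell in the window.

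**Figure D4:**
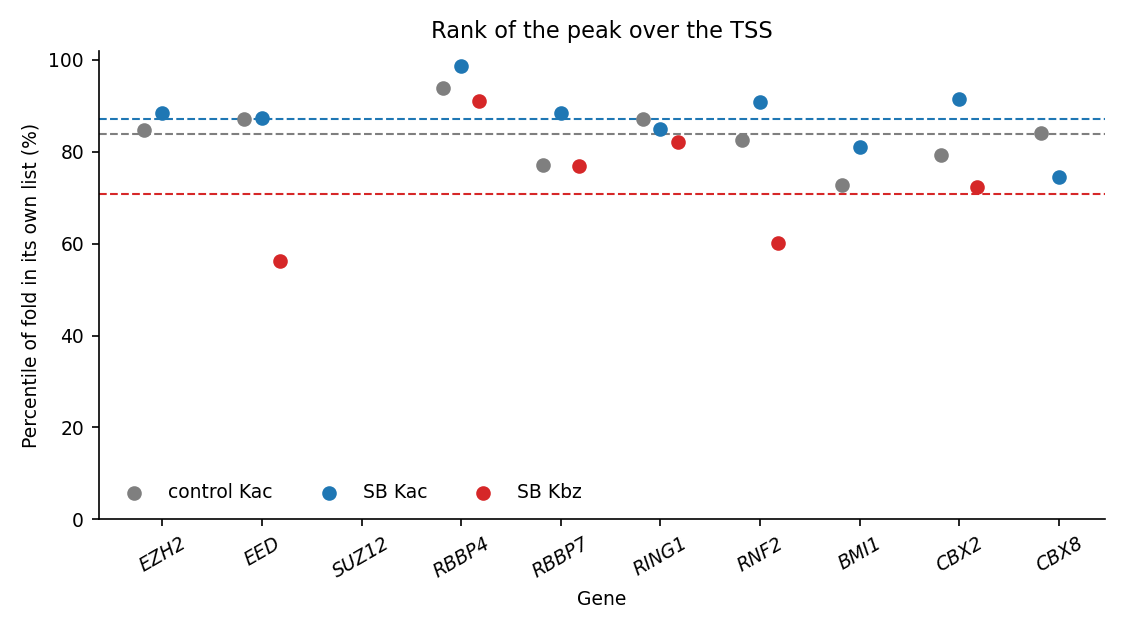
Percentile of fold, within its own list, of the peak over the canonical TSS of each gene, with dashed lines at the median of TSS peaks of all protein-coding genes (grey 83.8, control Kac, blue 87.2, SB Kac, red 70.8, SB Kbz). RBBP4 has the highest point of each list, SUZ12 has no point, and EZH2, BMI1 and CBX8 have no Kbz point.

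RING1 and RNF2 encode the alternative ubiquitin ligases of PRC1. At RING1 (ENSG00000204227, chr6:33208500-33212722, plus strand) the Kac peaks reached 3844 bases upstream in control cells and 4380 in SB cells, and 886 and 909 bases downstream. The SB Kac peak also covered the start of HSD17B8. Kbz appeared as 2 peaks inside this stretch, one from -905 to 22, which only just crossed the TSS, and one from -3764 to -3127. The RING1 peak was at percentile 87.2 (control Kac), 85.1 (SB Kac) and 82.1 (Kbz). Past the end of the gene, a control Kac peak of 826 bases and an SB Kac peak of 4840 bases overlapped, at percentiles 46.9 and 48.8, with no Kbz peak. At RNF2 (ENSG00000121481, chr1:185045526-185102603, plus strand) the TSS peaks were 3039, 2281 and 1607 bases long, at percentiles 82.5, 90.8 and 60.1 in control Kac, SB Kac and Kbz. RNF2 had the one Kbz peak of the set without any Kac peak, 396 bases long from 8472 to 8867 bases downstream of the TSS and at percentile 24.5.

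BMI1 (ENSG00000168283, chr10:22321099-22331484, plus strand), which activates the ligase, lay in the longest peaks. The Kac peak over its TSS was 12022 bases long in control cells and 19897 in SB cells, at percentiles of fold of 72.8 and 81.1. Upstream reach was 7881 bases in control Kac and 14453 in SB Kac. Both peaks covered the start of COMMD3, the neighbouring gene, and that of the gene annotated as COMMD3-BMI1. Kbz was found in 4 small peaks within this stretch, of 1527, 504, 557 and 387 bases, and none lay over the TSS of BMI1. The nearest ended 770 bases upstream, and the longest covered the starts of COMMD3 and COMMD3-BMI1. The Kac peaks could not be assigned to any of these genes alone. A further control Kac peak of 6390 bases began 15300 bases downstream, so that only its edge fell in the window.

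CBX2 and CBX8 encode readers of the methyl mark and are neighbours on chromosome 17, so that their windows overlapped and shared 2 control Kac and 2 SB Kac peaks. At CBX2 (ENSG00000173894, chr17:79778148-79787983, plus strand) the TSS was covered by 6310 bases of control Kac, 6273 of SB Kac and 3841 of Kbz. Its upstream reach was 4921, 4899 and 1672 bases. Fold stood at percentile 79.3 (control Kac), 91.5 (SB Kac) and 72.3 (Kbz), and the edges of the Kac peak differed by at most 22 bases between the lists. The Kbz peak was the longest over the TSS among the 6 genes that had one, and it reached 2168 bases downstream, past the 1373 bases of the SB Kac peak.

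At CBX8 (ENSG00000141570, chr17:79792132-79801683, minus strand) the Kac peak over the TSS was 10752 bases long in control cells and 13476 in SB cells, and its percentile of fold was 84.1 and 74.5. It reached 9643 and 12291 bases upstream, across the start of a further annotated gene (ENSG00000262768). Kbz was present in 3 peaks, of 363, 2564 and 570 bases, and covered none of the annotated starts of CBX8. The nearest, of 2564 bases, ran from -4366 to -1803 and covered the start of ENSG00000262768. It lay inside the gene record of CBX8, which begins at position -4606 from this TSS. CBX2 thus had Kbz over its start and CBX8, its neighbour with the longer Kac peak, had not.

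Between control and SB cells, the Kac peak over the TSS stood at a higher percentile of fold after SB in 7 of 9 genes, against 65.6% of protein-coding genes. The exceptions were RING1, with a difference (SB minus control) of -2.12 percentile points, and CBX8, with -9.52. The largest increases were at CBX2 with 12.2 points and RBBP7 with 11.3, and the median over protein-coding genes was 2.56. The peak was longer after SB in 5 of 9 genes, against 54.1%. Differences in length ran from -2060 bases at EZH2 to 7875 at BMI1, with 3 bases at RBBP4, and the median over protein-coding genes was 58. Neither share stood far from that of protein-coding genes, and both lists are single libraries.

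Of the 20 control Kac peaks in the windows, 4 had no SB Kac peak (30.3% over the windows of protein-coding genes), and of the 22 SB Kac peaks 6 had no control Kac peak (28.3%). All 10 lay away from a canonical TSS. The control peaks without a counterpart were 2 at EZH2, 1 at RBBP7 and 1 shared by CBX2 and CBX8, and those of SB Kac were 3 at EZH2 and 1 each at RBBP4, RNF2 and the stretch of CBX2 and CBX8. Their median percentile of fold was 23.4 in control Kac and 19.7 in SB Kac, whereas the control Kac peaks that overlapped both other lists had a median of 84.1. With a -log10 q of at least 5 required of both lists, 0 control and 2 SB peaks were without a counterpart.

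SB Kac was present under 19 of the 20 Kbz peaks (95.5% over the windows of protein-coding genes), and the exception was the one downstream of RNF2. In turn, Kbz was present under 12 of the 22 SB Kac peaks (36.4%), among them all 9 that lay over a TSS. With 50% of the SB Kac peak required to be covered, 6 met the condition. The share of Kbz peaks with SB Kac was close to that over the windows of protein-coding genes.

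The 35 other genes of the Polycomb system gave a comparison of the same kind. They include 6 listed as opposing Polycomb (KDM6A, KDM6B, BAP1, ASXL1, ASXL2 and ASXL3). Of those, 6 had control Kac, 6 SB Kac and 5 Kbz over the TSS. Over the TSS of all 35, 27 had control Kac (59.1% of protein-coding genes), 30 SB Kac (60.4%) and 22 Kbz (45.8%). All 3 were over the TSS of 21. The share of protein-coding genes with each combination of lists was not counted. Both Kac lists without Kbz were seen in 6, namely AEBP2 and EPOP, accessory proteins of PRC2, PHC3 and SCML2 of canonical PRC1, YAF2 of variant PRC1, and KDM6B, a demethylase that removes the mark of PRC2. SB Kac alone was over the TSS of PHC2 (1652 bases, percentile 26.7) and PCGF3 (3229 bases, percentile 71.8). RYBP, a variant PRC1 subunit, had SB Kac (3504 bases, percentile 84) and Kbz (1702 bases, percentile 67.6) without control Kac. PHF1, EZHIP, PCGF5 and BCOR had no peak over the TSS in any list. EZHIP, an inhibitor of PRC2, had none in its window either, while PHF1, PCGF5 and BCOR did. The longest SB Kac peaks over a TSS were those of KDM6B with 12339 bases, PCGF1 with 11254 and JARID2 with 8808, all shorter than the 13476 bases at CBX8 and the 19897 at BMI1.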

How the data were processed

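ChIP-seq peak lists of 3 HepG2 libraries were used. According to the labels and the methods of the study, the authors aligned single reads of 50 bases to hg38 with Bowtie2 2.2.6, kept unique alignments, removed duplicates with SAMtools 0.1.19 and called peaks with MACS2 2.1.1. The broad setting and background track are not given in the sources used here. The deposited fold is a linear ratio over background, averaged along the peak, and was used only as a percentile within its list. As thresholds in alternatives, −log10 p and −log10 q were taken as the authors deposited them. The lowest −log10 q was 1.31, so the lists reach past the stated FDR of 0.01. The display score that the authors deposited was not used.

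Genes, the canonical TSS and windows came from GENCODE 44. All peaks lay within the chromosome lengths of hg38. Peaks on 24 chromosomes were kept, and overlap meant at least 1 bp. Since each group is 1 library, groups were not tested against each other. The overlap code recovered 200 of 200 planted overlaps, called 0 of 200 planted beside a region, and 0 of 6 counts on the real lists differed from bedtools 2.31.1. The SUZ12 copy was found with BLAST+ 2.17.0, keeping alignments of at least 90% identity. Python 3.11.15, numpy 2.4.6, pandas 2.3.3, numba 0.67.0 and matplotlib 3.10.9 were used.

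The Polycomb subunits, the other Polycomb genes and the marker lists were chosen with earlier results of these data known. All 10 subunits are named. Other Polycomb genes are named where they had no TSS peak, where lists differed, or for the 3 longest SB Kac TSS peaks. Some items that these rules select are not reported here. The control Kbz and input libraries were not analysed here.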

Additional observations from a re-analysis of the deposited data

How the results depend on the processing

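Of 118 summary values recomputed under other settings, 99 stayed within 1.5 times the reported value and 19 moved further. The counts of genes with a peak over the TSS kept within that range under every setting tried for the 10 subunits, and with a peak within 1 kb of the TSS accepted SUZ12 counted in each list and EZH2 and BMI1 in Kbz, which gave 10, 10 and 9 genes. At a −log10 q of 5 or more, the windows held 11 control Kac and 13 SB Kac peaks, 0 control Kac peaks lacked SB Kac, 2 SB Kac peaks lacked control Kac, and 14 other Polycomb genes had Kbz over the TSS. At a −log10 q of 2 or more, 3 SB Kac peaks lacked control Kac. With the 15000 peaks of highest −log10 p in each list, the windows held 10 control Kac and 9 SB Kac peaks, 2 control Kac peaks lacked SB Kac, 1 SB Kac peak lacked control Kac, 12 Kbz peaks had SB Kac, and 17 other Polycomb genes had control Kac over the TSS. With no flank, control Kac covered 8.54%, SB Kac 8.47% and Kbz 3.36%, the windows held 12 Kbz peaks, 11 of them with SB Kac, and 2 control Kac peaks lacked SB Kac. With an overlap of 50% of the peak, 6 SB Kac peaks had Kbz. Upstream reach with peaks merged within 1 kb or from the outermost TSS, and the percentile among TSS peaks or by −log10 p, were chosen after seeing the data and moved no count by over 1.5 times.

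No paired analysis was possible because a group is a single library, and for the same reason no replicate was left out. Depth is unknown, and its part in the peak numbers was not tested.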
